A study of Mus musculus with 17 samples.

Results

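DNA methylation was measured at 29 CCCGGG sites in 8 immune genes, out of 58 immune genes listed for T-cell, B-cell, cytotoxic, myeloid, shared leukocyte signalling and cytokine functions. A site was a member when it lay from 1000 bp before the transcription start to the end of a listed gene (GENCODE M1, assembly mm9) and 13 or more of the 17 mice covered it with 50 reads or more. These are 29 of 19207 sites that met the same coverage rule in the genome. The method was DREAM, in which blood DNA is cut first by SmaI, which spares methylated CCCGGG, and then by XmaI, which cuts what is left, so that each read end tells whether its site was methylated. All mice were C57BL/6, an inbred strain, and the sample was whole blood. AL-young mice were fed freely (ad libitum, AL) and were 4 months old (n = 5, 2 females and 3 males). AL-old mice had the same feeding and were 29 to 33 months old (n = 7, 5 females and 2 males, the males both 33 months old). CR-old mice were kept on caloric restriction (CR) and were 32 to 38 months old (n = 5, 2 females and 3 males). Libraries held 6.41 to 51.6 M reads (megareads).

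Immune receptors pass their signal through a small set of shared machines. The CD3 chains carry the T-cell receptor signal, the kinase Syk and the phospholipase Plcg2 carry that of the B-cell receptor and of Fc receptors on myeloid cells, and Dock2 drives the movement of lymphocytes and neutrophils. Itgam (CD11b) and Csf1r (the receptor for macrophage colony-stimulating factor) mark myeloid cells, and Il10ra is the ligand-binding chain of the receptor for interleukin-10, which restrains inflammation. Control regions of such genes usually carry less methylation in the blood cell types that use them than in those that do not. In whole blood a change in the mix of cell types and a change inside cells cannot be told apart.

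Of the 58 genes, 17 had no CCCGGG in their window, 33 had sites but none with enough reads, and 8 had at least one member site. The windows held 174 CCCGGG sites in all. The 145 sites that did not meet the rule had a median of 2 reads per mouse, and 134 of them had a median of at most 5 reads. None of the 7 B-cell genes (among them Cd79a, Ms4a1 and Blnk) and none of the 3 cytotoxic genes (Prf1, Gzmb and Nkg7) gave a member. The T-cell list of 16 genes gave 6 sites in Cd3g and Cd247, the myeloid list of 12 genes gave 4 sites in Itgam and Csf1r, the list of 9 shared signalling and adhesion genes gave 17 sites in Syk, Plcg2 and Dock2, and the list of 11 cytokine and receptor genes gave 2 sites in Il10ra. The lineage genes that would define B cells and natural killer cells were therefore without a value, and the labelled tissue could not be checked against them.

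All 29 members lay in 14 groups of neighbours, 81 to 268 bp apart, which are the ends of the same restriction fragments. Neighbours share molecules and are not independent. The stretches that carried the sites lower in old mice, and the Cd247 stretch at which AL-young mice varied most, are printed here from the mm9 assembly, each on the strand of its gene with 12 flanking bases, and the capitals mark the CCCGGG sites.
Syk, chr13:52706254-52706551, plus strand: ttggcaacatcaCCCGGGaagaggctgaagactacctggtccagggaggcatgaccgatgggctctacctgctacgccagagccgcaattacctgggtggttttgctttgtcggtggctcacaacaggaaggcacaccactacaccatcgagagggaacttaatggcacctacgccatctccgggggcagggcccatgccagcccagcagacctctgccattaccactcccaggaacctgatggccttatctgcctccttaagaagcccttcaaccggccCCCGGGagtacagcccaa
Itgam, chr7:135262386-135262496, plus strand: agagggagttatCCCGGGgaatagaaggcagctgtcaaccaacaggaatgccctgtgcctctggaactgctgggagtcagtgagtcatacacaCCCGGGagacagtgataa
Cd3g, chr9:44781865-44781995, minus strand: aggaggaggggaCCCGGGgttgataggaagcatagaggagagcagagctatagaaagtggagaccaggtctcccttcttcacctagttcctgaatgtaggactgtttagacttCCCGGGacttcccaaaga
Il10ra, chr9:45069211-45069380, minus strand: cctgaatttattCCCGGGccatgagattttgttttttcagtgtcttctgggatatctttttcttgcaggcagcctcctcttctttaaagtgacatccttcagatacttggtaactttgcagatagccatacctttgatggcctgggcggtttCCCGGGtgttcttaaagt
Dock2, chr11:34418698-34418978, minus strand: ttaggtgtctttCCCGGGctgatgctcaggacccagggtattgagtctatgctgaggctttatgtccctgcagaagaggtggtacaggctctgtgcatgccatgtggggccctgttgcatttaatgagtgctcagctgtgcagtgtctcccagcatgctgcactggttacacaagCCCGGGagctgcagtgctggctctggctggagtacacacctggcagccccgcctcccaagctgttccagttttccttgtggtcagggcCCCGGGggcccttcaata
Plcg2, chr8:120051867-120052146, plus strand: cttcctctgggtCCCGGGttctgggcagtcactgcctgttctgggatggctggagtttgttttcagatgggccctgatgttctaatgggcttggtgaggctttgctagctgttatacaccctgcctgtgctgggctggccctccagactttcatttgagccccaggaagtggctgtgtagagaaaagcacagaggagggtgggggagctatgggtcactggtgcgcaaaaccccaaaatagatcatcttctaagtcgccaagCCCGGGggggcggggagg
Cd247, chr1:167767903-167768017, plus strand: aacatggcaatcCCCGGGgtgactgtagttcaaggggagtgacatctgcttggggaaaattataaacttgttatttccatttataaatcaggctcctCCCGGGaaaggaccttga
The Syk stretch is coding sequence and the other 6 are intronic. In a short window, 50 bases to either side of the centre of a site, the letters GGAAGT (an ETS family core, both strands) stood at 2 of 29 members and at 5.27% of the 18884 autosomal sites tested, or 6.63% of those outside CpG islands. The Cd3g +6637 window held them more than once, on either side of the CCCGGG and partly overlapping it, and the other member with them was Plcg2 +115840. The letters TGTGGT (a Runx core, both strands) stood at 5 of 29 members. Over all tested sites the share was 4.05%, and over those outside CpG islands, where 25 of the 29 members and all 5 with these letters lay, it was 6.68%. The 5 were Cd247 +49103, Plcg2 +115840 and Dock2 +91846, +178684 and +465550. A match of letters says nothing of binding.

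Sites are named by gene and by their distance in bp from the gene start. Levels are raw methylation, the percent of reads that were methylated. In AL-young mice 7 members lay below 5%, 2 from 5 to 20%, 7 from 20 to 80% and 13 above 80%, whereas 63.2% of all 18884 tested sites lay below 5%. Only 4 members lay in CpG islands, against 61.0% of all tested sites, and 6 lay within 500 bp of an annotated transcription start, against 48.8%. Those in islands were the sites at the gene starts of Syk (−17 and +247) and Plcg2 (+33 and +165). Together with the Cd247 intron sites +56331 and +56454 they stayed below 1% in all 3 groups, and the highest mean among them was 0.388% in CR-old mice at Plcg2 +33. In many of these libraries no methylated read was seen at all, as at Syk −17 in 13 of 17 mice. The lowest read count there was 279, which allows a share of up to 1.08%. The start sites of Syk and Plcg2 were thus at or near 0 at this depth in young, old and restricted mice.

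**Figure D1:**
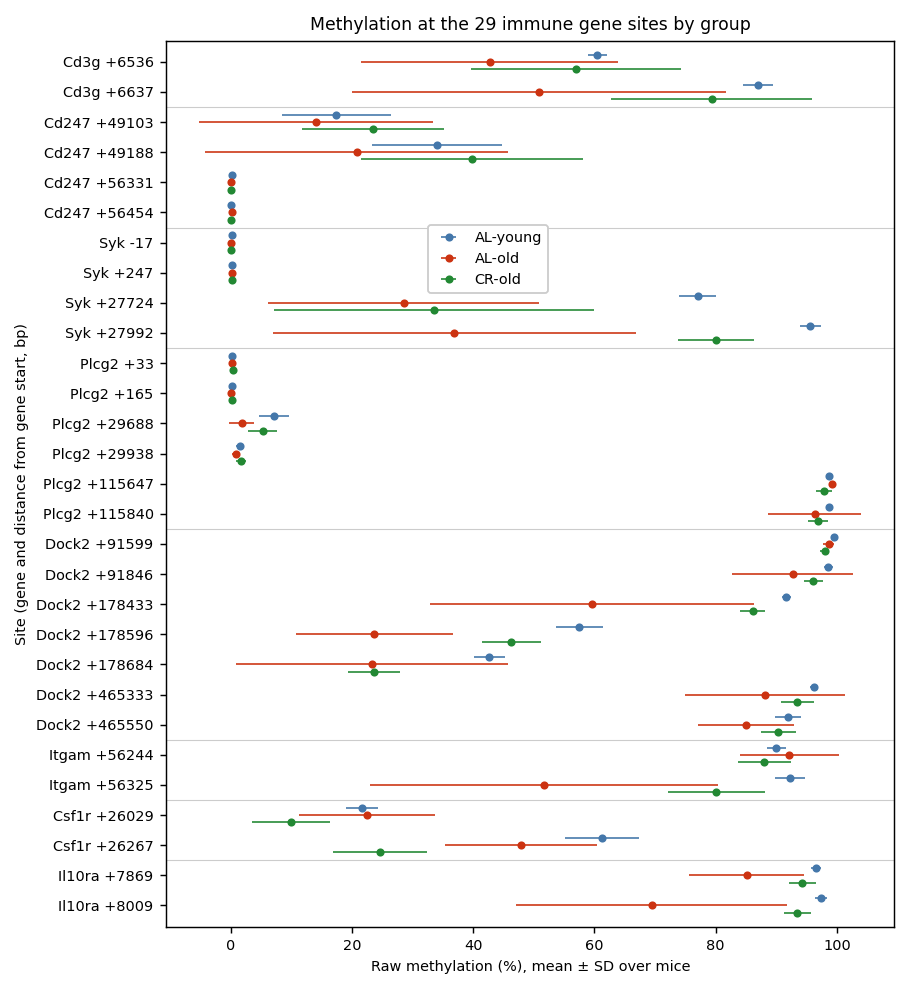
Raw methylation (percent, horizontal axis) at the 29 sites, grouped by gene, as the mean ± SD of AL-young (n = 5), AL-old (n = 7) and CR-old mice (n = 5). AL-old bars are the widest at most sites of intermediate or high methylation, and 6 sites stay below 1% in every group.

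AL-old mice were first compared with AL-young mice. No member was higher in AL-old mice and 9 were lower, by the quasi-likelihood test of edgeR with a Benjamini-Hochberg adjusted p under 0.05 and at least 2 points between the means. Over all 18884 tested sites 3.96% were called higher and 6.01% lower. At an unadjusted p under 0.05 the counts of members were 0 higher and 12 lower, against 8.33% and 14.1% of all tested sites, and limma called 0 higher and 9 lower, against 3.32% and 5.4% of all tested sites. Since most members lay outside islands, the closer background is the 5756 tested sites that lay outside islands and were over 20% methylated in AL-young mice, of which 16.8% were called lower and 31.7% were lower at an unadjusted p under 0.05. Of the 20 members of that kind 8 were called lower and 11 were lower at that p, and the ninth call, Plcg2 +29688, started from a lower level. The median difference over the 29 members was -5.86 points, against -0.0146 points over all tested sites. Over those 20 members it was -13.3 points, against -5.39 points over the 5756 sites. The 9 sites lay in 6 genes: Syk, Itgam, Cd3g, Il10ra, Dock2 and Plcg2.

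Syk, the tyrosine kinase that starts signalling from the B-cell receptor and Fc receptors, showed the largest difference. Both sites lie in a coding exon in the part that encodes the first phosphotyrosine-binding (SH2) domain, at chr13:52706266-52706271 (+27724) and chr13:52706534-52706539 (+27992). At Syk +27992 the AL-young mice read 92.9, 97.4, 95.8, 95.1 and 96.9%. The 7 AL-old mice ran from 8.86 to 94.6% with a median of 31.7%. The CR-old mice read 84.2, 84.3, 69.2, 80.9 and 81.9%, all below the lowest AL-young mouse. All AL-old mice but AL-old 25 lay below 50%, and AL-old 25 lay within the young range, so that AL-old overlapped both other groups. The means were 95.6 ± 1.77% (SD, n = 5), 36.9 ± 30.0% (n = 7) and 80.1 ± 6.26% (n = 5). AL-old mice were lower than AL-young mice by 5.67 on the log2 odds scale (log2 odds ratio -5.67, SE 0.81, edgeR adjusted p = 1.04e-06).

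At the other end of the same fragment the pattern of the CR-old mice was different. At Syk +27724 the AL-young mice read 72.1, 76.6, 77.2, 79.6 and 79.7%. The AL-old mice ran from 6.89 to 63.7% with a median of 23.6%, all below the AL-young mice. In CR-old mice the values were 36.0, 78.4, 20.6, 18.9 and 13.7%, and only CR-old 06 lay in the young range. The AL-old mean was 28.5 ± 22.3% against 77.0 ± 3.08% in AL-young mice (log2 odds ratio -3.48, SE 0.75, edgeR adjusted p = 0.000693). This was the one member lower in AL-old mice under all 27 alternatives tried. Among the 11 mice whose spiked standards needed little correction it held as well (log2 odds ratio -2.81, edgeR adjusted p = 0.0278), while Syk +27992 did not pass there (-3.79, adjusted p = 0.0558).

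Itgam encodes CD11b, the alpha chain of an adhesion receptor of neutrophils, monocytes and natural killer cells. Its sites lie 81 bp apart in an intron, at chr7:135262398-135262403 (+56244) and chr7:135262479-135262484 (+56325). At +56325 the AL-young mice read 93.3, 89.3, 95.4, 93.0 and 90.4%. The AL-old mice with at least 50 reads read 19.9, 52.7, 30.1, 92.8 and 62.8%, and AL-old 08 and 13 had only 41 and 27 reads. The CR-old mice read 85.9, 68.7, 75.8, 88.5 and 81.6%, all below the lowest AL-young mouse. The nearest were CR-old 20 at 88.5% and AL-young 16 at 89.3%, and on the authors' adjusted scale these 2 groups overlapped. AL-old mice had a mean of 51.7 ± 28.7% (n = 5) against 92.3 ± 2.41% in AL-young mice (log2 odds ratio -3.74, SE 0.73, edgeR adjusted p = 0.000195, with the reads of all 17 mice in the fit). The neighbour +56244 read 92.1 ± 8.20% in the old group, against 90.0 ± 1.57% in the young one (edgeR adjusted p = 0.416), so that only one end of this short fragment passed the test. The difference between the ends was not tested.

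Cd3g encodes the gamma chain of CD3, which every mature T cell carries with its receptor. Its sites lie in an intron at chr9:44781877-44781882 (+6637) and chr9:44781978-44781983 (+6536). At +6637 the AL-young mice read 84.0, 89.8, 87.8, 88.6 and 85.1%. The AL-old mice ran from 13.4 to 85.3% with a median of 67.3%, and AL-old 25 alone reached the young range. In CR-old mice the values were 87.3, 50.0, 84.5, 89.9 and 85.2%, where the low value was CR-old 06. The AL-old mean was 50.9 ± 30.8% against 87.0 ± 2.45% (log2 odds ratio -2.67, SE 0.77, edgeR adjusted p = 0.0131). At +6536 the means were 42.8 ± 21.2% in the old group and 60.5 ± 1.60% in the young one (edgeR adjusted p = 0.343). Cd247, which encodes the CD3 zeta chain, gave no call. At Cd247 +49188 (chr1:167768000-167768005, intron) the AL-young mice ran from 23.2 to 46.2%, the AL-old mice from 2.89 to 71.01% and the CR-old mice from 10.7 to 56.8%. The highest of the AL-old mice was AL-old 25, and the 5 AL-old females all lay at or below 12.2% (edgeR adjusted p = 0.151). Its neighbour Cd247 +49103 averaged 17.5 ± 9.03%, 14.2 ± 19.3% and 23.5 ± 11.7% in the AL-young, AL-old and CR-old groups (edgeR adjusted p = 0.329 for age). It was the Cd247 pair at which AL-young mice differed most among themselves.

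Depth at some of these sites moved with the spiked standards. The authors multiply the odds of methylation by a constant for each mouse, taken from added DNA of known methylation, and this correction factor was 1.40 to 3.96 in the 5 AL-old females and CR-old 06 and 0.872 to 1.13 in the other 11 mice. At Cd3g +6637 those 6 mice had 6.23 to 24.6 reads per M reads of the library and the other 11 had 36.1 to 109. At Csf1r +26267 the ranges were 18.0 to 35.6 and 42.7 to 61.5 reads per M. At Itgam +56325 they overlapped, 2.55 to 18.6 and 11.3 to 50.9 reads per M, and at Syk +27992 they were 28.2 to 38.2 and 29.5 to 47.02 reads per M. The 6 mice also had lower raw values at Cd3g +6637 than the other mice of their groups, except that AL-old 10 exceeded AL-old 27. The part of depth or correction in these results was not tested. Within the AL-old group it cannot be told apart from sex, since all AL-old females and no AL-old male carried a high factor. With a sex covariate shared by all groups the same 9 members were lower, against 4.88% of all tested sites. Such a covariate cannot remove a difference particular to the AL-old females, which was not tested.

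**Figure D2:**
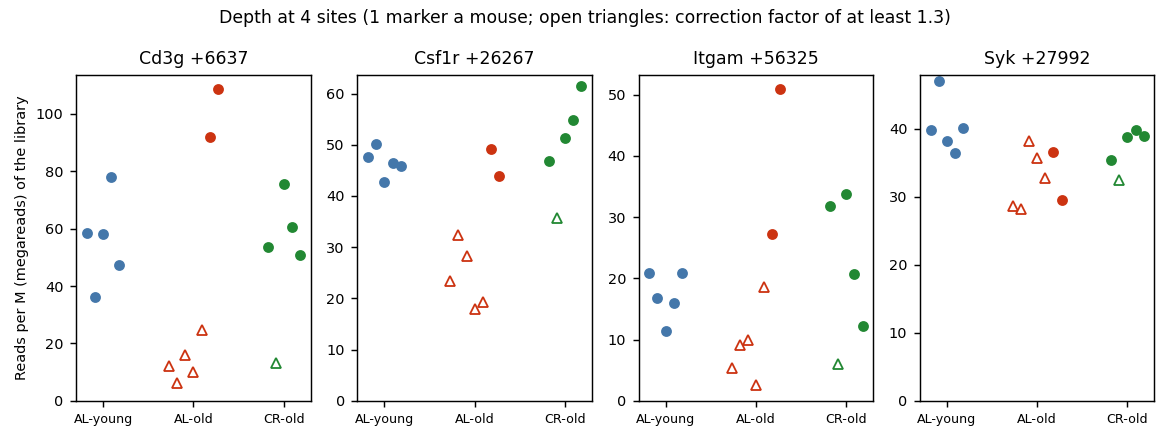
Reads per M reads (megareads) of the library (vertical axis, from 0) at 4 sites for each mouse, by group. Open triangles are the 6 mice with a correction factor of at least 1.3, which lie below all others at Cd3g +6637 and Csf1r +26267 and among the others at Syk +27992.

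Il10ra had both of its intron sites lower in AL-old mice. They lie at chr9:45069223-45069228 (+8009) and chr9:45069363-45069368 (+7869). At +8009 the AL-young mice read 98.0, 95.9, 98.0, 98.2 and 96.6%. The AL-old mice ran from 33.4 to 97.5% with a median of 68.6%, and AL-old 25 was the highest. The CR-old mice read 95.5, 90.7, 91.3, 95.2 and 94.8%, all just below the lowest AL-young mouse. The AL-old mean was 69.4 ± 22.4% against 97.3 ± 1.01% (log2 odds ratio -3.76, SE 0.76, edgeR adjusted p = 0.000307). At +7869 it was 85.1 ± 9.51% against 96.6 ± 0.875% (log2 odds ratio -2.07, SE 0.66, edgeR adjusted p = 0.0287), a call that 9 of 27 alternatives removed, among them the fits without AL-old 13 or without any one of AL-young 15, 16, 29 or 30.

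Dock2, the exchange factor that activates Rac in migrating lymphocytes and neutrophils, had 7 members in 3 stretches. The middle stretch lies in an intron and has 3 sites, at chr11:34418961-34418966 (+178433), chr11:34418798-34418803 (+178596) and chr11:34418710-34418715 (+178684). At +178596 the AL-young mice read 51.6, 57.9, 58.7, 62.3 and 57.0%. The AL-old mice ran from 4.02 to 45.6% with a median of 22.2%, all below the AL-young mice. In CR-old mice the values were 50.1, 52.5, 40.5, 43.2 and 45.4%, above all AL-old mice but AL-old 25. The AL-old mean was 23.7 ± 12.96% against 57.5 ± 3.87% (log2 odds ratio -2.32, SE 0.65, edgeR adjusted p = 0.0110). At +178433 it was 59.6 ± 26.7% against 91.7 ± 0.724% (log2 odds ratio -2.74, SE 0.72, edgeR adjusted p = 0.00599). At +178684 the AL-old mean of 23.3 ± 22.5% against 42.6 ± 2.55% did not pass (edgeR adjusted p = 0.0834), with AL-old 27 at 70.3% and the other 6 AL-old mice from 4.22 to 32.5%. Without AL-old 27 that site passed (log2 odds ratio -2.23, edgeR adjusted p = 0.00779). The CR-old mean was 86.1 ± 2.07% at +178433. At +178684 it was 23.7 ± 4.27%, near the AL-old mean, and the CR-old mice, from 18.4 to 27.2%, lay below every AL-young mouse. There CR-old mice passed neither against AL-old nor against AL-young mice (edgeR adjusted p = 0.791 and 0.697).

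The 4 other Dock2 members had high group means, while single mice read as low as 59.1% (AL-old 27 at +465333). At Dock2 +91599, a coding exon site, the group means ran from 98.0% (CR-old) to 99.5% (AL-young), and at its neighbour +91846 from 92.7% (AL-old) to 98.6% (AL-young). At Dock2 +465333 and +465550, which lie 391 and 174 bp before an annotated transcript start inside the gene, they ran from 85.0% in AL-old mice at +465550 to 96.2% in AL-young mice at +465333. None of these passed the test for age. In fits that allowed for the correction, Dock2 +91846 was called lower (log2 odds ratio -2.96, edgeR adjusted p = 0.0283 with a covariate for a high correction factor). There AL-old 27 read 70.7% while the other 6 AL-old mice read 92.4 to 98.4%.

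Plcg2, the phospholipase that acts after Syk in B cells and myeloid cells, had 6 members. At the intron site Plcg2 +29688 (chr8:120051879-120051884) the AL-young mice read 7.31, 10.5, 5.0, 4.51 and 8.61%. The AL-old mice ran from 0.26 to 6.00% with a median of 1.81%, and the CR-old mice read 5.67, 1.25, 6.85, 7.19 and 5.65%. AL-old 25 was again the highest of its group, and CR-old 06 lay among the AL-old mice. The AL-old mean was 1.83 ± 2.03% against 7.18 ± 2.49% (log2 odds ratio -2.68, SE 0.74, edgeR adjusted p = 0.00941). Its neighbour +29938 had means from 0.81 to 1.72%, and the sites +115647 and +115840 had group means of at least 96.4%.

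**Figure D3:**
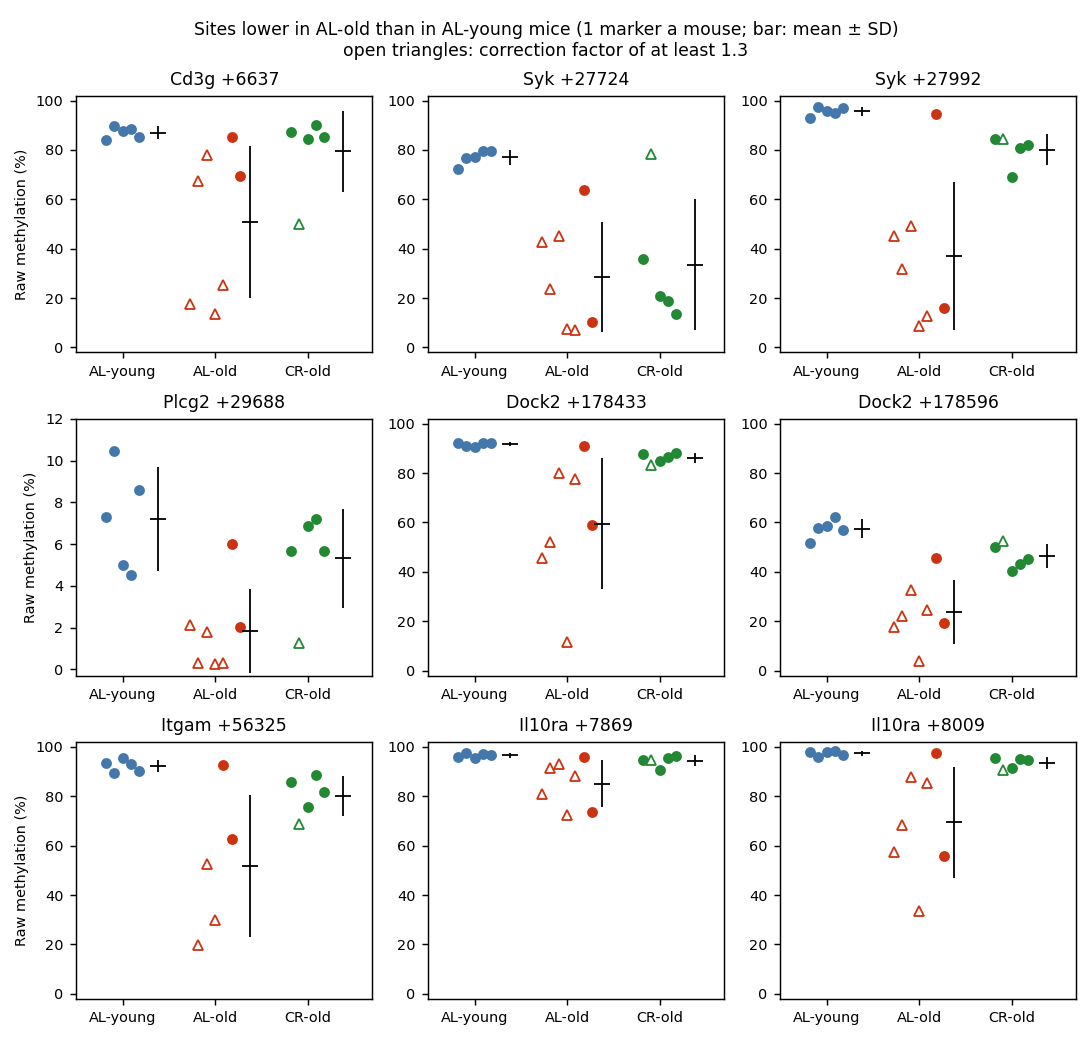
Raw methylation (percent, vertical axis) of each mouse at the 9 sites called lower in AL-old mice, by group, with the mean ± SD beside each group. AL-old values spread widely, AL-old 25 is the highest of its group in every panel, and most CR-old values lie between the other groups or near the young ones. AL-old 08 and 13 are not drawn at Itgam +56325, where they had under 50 reads.

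AL-old mice also spread widely at many members. The SD exceeded 10 points at 14 of 29 members among AL-old mice, at 5 among CR-old mice and at 1 among AL-young mice. The share over all tested sites was not computed, so these counts are no result about the members in particular. Of the 7 AL-old mice 5 carried a high correction factor, and its part in the spread was not tested. AL-old 25, a male of 33 months, lay below the lowest AL-young mouse at 2 of the 9 called sites (5 on the authors' adjusted scale), whereas AL-old 27, a male of the same age, and the 5 females did so at every one of the 9 where they had at least 50 reads (7 to 9 on the adjusted scale). The CR-old mice did so at 6 or 7 of the 9 on either scale. Only at Syk +27724 and Dock2 +178596 did all AL-old mice lie below all AL-young mice, 2 of 29 members against 2.12% of all tested sites. On the adjusted scale this was so at 4 members, Cd3g +6637 and Dock2 +178433 added, against 1.74%. Adjusted AL-old means were below adjusted AL-young means at all 9, for example 48.0% against 95.8% at Syk +27992 and 61.1% against 87.5% at Cd3g +6637. The added standards still differed after adjustment between the 6 high-correction mice and the 11 others. Adjusted means were 60.7% against 40.7% for Gfp_1 (raw 41.7 and 40.8%) and 20.6% against 33.6% for Kan_1 (raw 11.6 and 33.7%). For Luc_1 they were 24.5% against 26.8% (raw 13.9 and 26.9%). In the 11 low-correction mice, where the AL-old group is AL-old 25 and 27, raw AL-old means were also lower at all 9. The 9 sites were called for low values in these same AL-old mice. Their directions here, and the counts for each AL-old mouse at them, are therefore no separate result. The counts for the CR-old mice are none either, as the sites were called against these same AL-young mice. Over the 5756 tested sites outside islands with AL-young means above 20%, the CR-old mean was below the AL-young mean at 90.8%.

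Fits that allowed for the correction factor called fewer members. With the correction factor as an offset 7 members were lower, against 3.33% of all tested sites. A covariate for a high correction factor left 4 lower (Syk +27724, Syk +27992, Il10ra +8009 and Dock2 +91846), against 1.17%. In the low-correction mice alone 2 were lower (Syk +27724 and Dock2 +91846), against 1.72%. At Cd3g +6637 the log2 odds ratio shrank to -0.89 with the covariate (edgeR adjusted p = 0.618), and at Plcg2 +29688 to -0.99 (adjusted p = 0.562).

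CR-old mice were next compared with AL-old mice to ask whether the diet went with other levels in old age. The groups also differ in age, 32 to 38 against 29 to 33 months, and in sex, 2 females of 5 against 5 of 7. A high correction factor was carried by 1 of 5 CR-old and 5 of 7 AL-old mice. Diet cannot be told apart from these. One member was higher in CR-old mice and none was lower by edgeR, against 1.58% and 1.76% of all tested sites. At an unadjusted p under 0.05 the counts of members were 10 higher and 3 lower, against 7.18% and 8.59% of all tested sites, and limma called 0 in either direction, against 0.937% higher and 1.08% lower of all tested sites. Of the 20 methylated members outside islands 8 were higher and 3 lower at that p, against 14.1% and 9.03% of the 5756 sites of that kind. By the edgeR call 1 of these 20 was higher, and of the 5756 sites 238 were higher and 86 lower. The one call was Syk +27992, 80.1 ± 6.26% in CR-old against 36.9 ± 30.0% in AL-old mice (log2 odds ratio 3.16, SE 0.77, edgeR adjusted p = 0.0106). Limma gave it an adjusted p of 0.0708, and in the low-correction mice edgeR gave 0.677. Over the 29 members the CR-old mean was above the AL-old mean at 22, against 44.5% of all tested sites, with a median difference of 3.41 points, against -0.0254 points. Over the 20 methylated members outside islands it was above at 15, against 59.0% of the 5756 sites of that kind, with a median of 5.32 points, against 1.61 points. The comparison shares the AL-old mice with the one by age, so a higher CR-old mean at sites chosen for low AL-old values is no separate result. The next in size were Il10ra +8009 (edgeR adjusted p = 0.0517) and Itgam +56325 (0.0645). The count of members rose to 9 without AL-old 25, the mouse with near-young levels, while the share over all tested sites rose to 4.15%. Leaving out CR-old 06 gave 6 members and leaving out AL-old 27 gave 4, with 2.22% of all tested sites in each case.

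At Csf1r, CR-old mice had the lowest values. Csf1r encodes the growth factor receptor of monocytes and macrophages, and its sites lie in untranslated exon sequence near its 3′ end, where Hmgxb3 overlaps it, at chr18:61291255-61291260 (+26029) and chr18:61291493-61291498 (+26267). At +26267 the AL-young mice read 62.3, 70.3, 53.6, 58.8 and 61.5%. The AL-old mice ran from 30.1 to 62.9% with a median of 45.8%. The CR-old mice read 34.9, 28.9, 25.3, 18.7 and 15.5%, below every AL-young mouse and below all AL-old mice but AL-old 09. The CR-old mean was 24.6 ± 7.78% against 47.8 ± 12.5% and 61.3 ± 6.06% in the AL-old and AL-young groups, and neither difference passed in the fit of all 17 mice (log2 odds ratios -1.54, SE 0.62, and -2.34, SE 0.67, edgeR adjusted p = 0.169 and 0.224). At +26029 the CR-old mice read 12.8, 19.4, 8.77, 5.01 and 3.82% and the means were 9.96 ± 6.35%, 22.5 ± 11.2% and 21.7 ± 2.63% in the same order. With the correction factor as an offset both sites were lower in CR-old than in AL-old mice, against 6.57% of all tested sites (edgeR adjusted p = 0.0472 and 0.0126). In the low-correction mice alone +26267 was lower (edgeR adjusted p = 0.0418), against 419 of the 18884 tested sites.

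**Figure D4:**
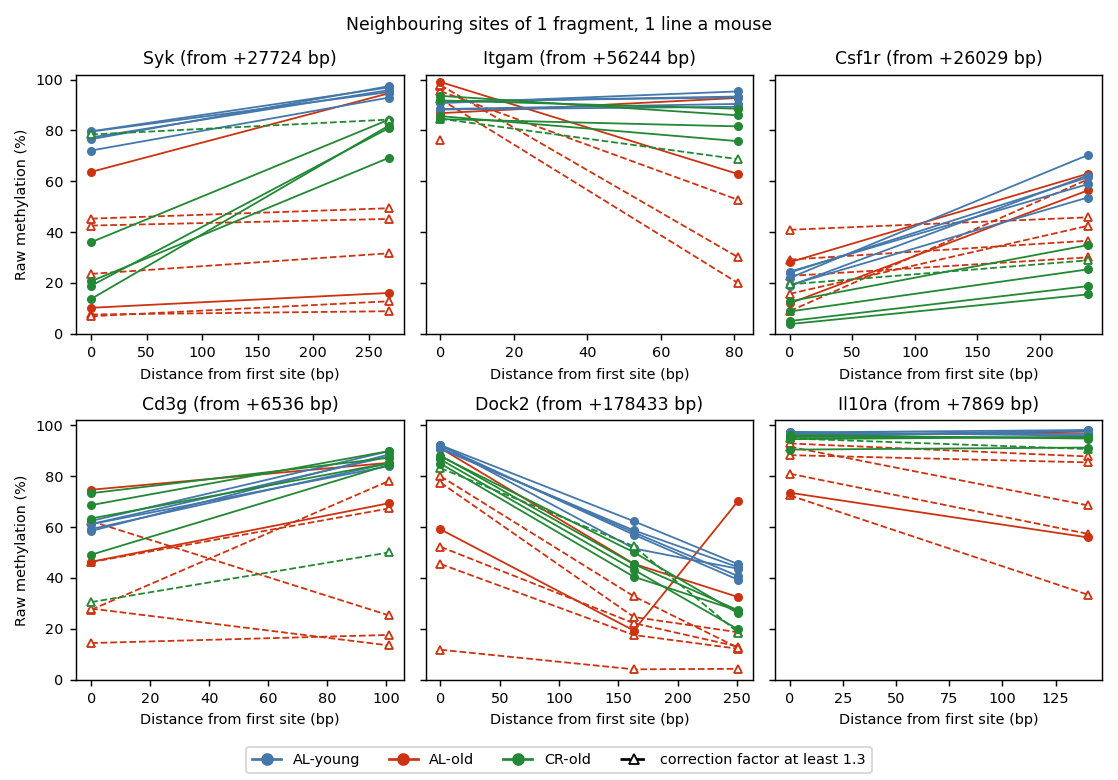
Raw methylation (percent, vertical axis) at neighbouring sites of 6 fragments against their distance in bp, with 1 line per mouse. In Syk the 4 solid CR-old lines run from the AL-old range at the first site to 69.2 to 84.2% at the second, below the young range. In Itgam the AL-old lines part at the second site, and in Csf1r the CR-old lines lie lowest at +26267.

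CR-old mice were last compared with AL-young mice, which differ in age and diet together. No member and 0% of the 18884 tested sites were called in either direction by edgeR, and limma likewise called 0. At an unadjusted p under 0.05 the counts of members were 0 higher and 6 lower, against 1.84% and 4.99% of all tested sites. All 6 were among the 20 methylated members outside islands, where the share over the 5756 sites was 11.9%. The CR-old mean was below the AL-young mean at 24 of 29 members, with a median difference of -2.01 points, against 61.7% and -0.0560 points over all tested sites. Against the closer background the members' median was close to that of the rest: over the 20 it was -3.67 points, and over the 5756 sites it was -3.55 points. The call depended on which mice set the spread. With the AL-old mice left out of the fit 8 members were lower, namely both Csf1r sites, both coding Syk sites, Itgam +56325, Il10ra +8009, Dock2 +178684 and Dock2 +91846, against 6.32% of all tested sites. The smallest adjusted p there were those of Csf1r +26267 (4.23e-05), Syk +27992 (4.57e-05) and Syk +27724 (0.000145). In the low-correction mice, with all 3 groups in the fit, Syk +27724 and both Csf1r sites were lower, against 2.02%, so that of these 8 they passed in both.

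Other genes of the same pathways served as a wider view. From a list of 104 further immune genes 18 had 50 sites with enough reads. In AL-old against AL-young mice 2 of the 50 sites were higher (4%) and 4 lower (8%) by edgeR, near the 3.96% and 6.01% of all tested sites. Those higher were in Vav3 and in Il21r, the interleukin-21 receptor. The Vav3 site, in a CpG island before the gene, had the larger log2 odds ratio (3.81, SE 1.303, edgeR adjusted p = 0.0459) and ran from 0.37 to 16.4% in AL-old mice, with at most 0.71% in AL-young mice. Its means were 3.31 ± 5.82% in the AL-old group and 0.407 ± 0.316% in the young one. The lowest read count there was 31, so not every mouse entered these means. The Il21r site, in a coding exon, moved most in points and read 18.3 ± 3.51% in the young group and 50.0 ± 22.03% in the AL-old one (edgeR adjusted p = 0.0195). The largest loss was in Ncf1, a subunit of the neutrophil oxidase, at a coding exon site that read 52.3 ± 4.67% in the young group and 13.2 ± 14.01% in the AL-old one (edgeR adjusted p = 0.000296), followed by an intron site of Pik3ap1, a B-cell signalling adaptor, at 97.4 ± 0.513% and 73.3 ± 22.2% (adjusted p = 0.00134). CR-old mice differed from AL-old mice at 1 of the 50 (2%, against 1.58% of all tested sites called higher), another Ncf1 site, which read 9.28 ± 7.41% in AL-old and 32.6 ± 9.26% in CR-old mice (edgeR adjusted p = 0.0164), and from AL-young mice at none.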

How the data were processed

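DNA of whole blood was digested after addition of methylation standards, size-selected in 2 gel slices and sequenced (DREAM). Reads were mapped to mm9 by the authors, and the submitters' processing notes name Bowtie2, SAMtools and the builds mm9 and mm10 without versions. For each of 173449 sites the authors deposited counts of methylated, unmethylated and total reads, and 2 methylation percentages, raw and adjusted. The deposited raw percent was 100 times (methylated + 0.5)/(total + 1), within 0.005 points, and the adjusted percent multiplied the odds by a constant for each mouse. Only these per-mouse tables were used, and sites were placed on NCBIM37 (mm9). The members and lists were chosen with earlier results of these data known.

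Counts were fitted with edgeR 4.0.16 (R 4.3.3, quasi-likelihood F test, a term for each mouse, a methylation term per group, 1 dispersion) over 18884 autosomal sites and all reads of the 17 mice, with Benjamini-Hochberg adjustment over all of them. A call needed an adjusted p under 0.05 and means at least 2 points apart. Values from fewer than 50 reads were left out of means. CpG islands were called with at least 200 bp, 50% GC and an observed over expected ratio of 0.6. At 50 reads a site at 50% has a 95% Wilson interval from 36.6 to 63.4%, and 3 reads amount to 6%; both cover counting error only, as reads carry no molecular identifiers. Sites were named by up to 10 calls per direction for age and up to 6 for each other comparison, with 1 site per gene, the passing site nearest each gene start, and variable sites with young levels from 20 to 80%. Since few sites passed, the other members are given as well, chosen after their values were seen. Mice are the replicates, as the labels number each one. Alternatives were the correction factor (as an offset, as a covariate split at 1.3, or low-correction mice only), sex, the groups in the fit, 20 or 100 reads, a trended dispersion, limma 3.58.1, no minimum difference and leaving out each mouse. Syk was found in GENCODE M1 under a synonym listed by RefSeq. The fit was tested on simulated data for AL-old against AL-young mice, with 200 of 6000 sites changed. It recovered 2 of 100 sites changed 2-fold in odds and 56 of 100 changed 4-fold, with 3 false calls. A site without a call can thus still differ. Plots used Python 3.11.15 and matplotlib 3.10.9.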

Additional observations from a re-analysis of the deposited data

Results flagged for a closer look

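Within each group of 5 to 7 mice at the 29 sites, a mouse was singled out when its gap to the nearest other mouse took a large share of the group's range (Dixon's critical value at 95%). In 87 groups this singled out 17 values. The nominal rate of about 1 in 20 groups holds for independent normal values. Neighbouring sites share molecules, the same mice recur and many percents lie at the ends of the scale. No excess over chance can therefore be read from the count. Of the 17, 5 lie at sites below 1% in all 3 groups and rest on 1 or 2 methylated reads, so that the gap is set by counting and by the 0.5 read the authors add.

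AL-old 27 stood apart from the other 6 AL-old mice at 4 sites, each time at one end of a fragment. It read 79.1% at Plcg2 +115840 (others 98.3 to 99.8%), 59.1% at Dock2 +465333 (others 89.0 to 98.0%), 70.7% at Dock2 +91846 (others 92.4 to 98.4%) and 70.3% at Dock2 +178684 (others 4.22 to 32.5%). AL-old 25 stood apart at Plcg2 +29688 with 6.00% and at Syk +247 with 0.41% (1 methylated read of 363). CR-old 06 did so at Cd3g +6637 with 50.0%, at Plcg2 +29688 with 1.25% and at Plcg2 +115840 with 99.7%. CR-old 19 was lowest at Syk +27992 with 69.2% and at Il10ra +7869 with 90.5%. CR-old 20 was highest at Cd247 +56454 with 0.33% (2 of 762 reads) and at Plcg2 +165 with 0.52% (2 of 483). AL-young 15 was lowest at Dock2 +465333 with 94.95% and at Dock2 +91846 with 97.2%, and highest at Plcg2 +33 with 0.53% (2 of 469 reads), and AL-young 16 was highest at Cd247 +56331 with 0.44% (1 of 342 reads).

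At 5 sites the deposited raw percent of every female differed in one direction from the mean of the comparison group's females, and that of every male in the other. The difference between the sexes was not tested, and the sexes also differ in correction factor. For AL-old minus AL-young, the female mean difference minus the male one was -45.6 points at Cd247 +49188 (-26.0 in 5 females and 19.6 in 2 males). It was -0.221 points at Cd247 +56331 and -0.294 points at Plcg2 +33, where the 2 AL-old males had 0 methylated reads (of 923 and 392), so that their raw percent is the added 0.5 read at their depth and shows no rise. For CR-old minus AL-old it was 36.9 points at Dock2 +178684 (10.2 in 2 females and -26.7 in 3 males) and 51.2 points at Syk +27724 (32.0 and -19.2).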

How the results depend on the processing

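The 9 members lower in AL-old than in AL-young mice became 4 with a covariate for a high correction factor and 2 in low-correction mice only, the count that changed most for age. Leaving out each mouse gave 8 to 11, against 874 to 1720 of the 18884 tested sites. It gave 0 higher throughout, against 554 to 902 of those sites. For CR-old against AL-old mice the 1 higher member became 0 with that covariate, 0 in low-correction mice and 0 with limma, and 1 to 9 when each mouse was left out (9 without AL-old 25, 6 without CR-old 06, 4 without AL-old 27, 2 without AL-old 10 or 14 or any one of AL-young 16, 28, 29 and 30). Of the 18884 tested sites 21 were higher with the covariate, 27 in low-correction mice and 177 with limma. Leaving out each mouse gave 113 to 784 such sites, and 235 to 352 in the fits with 2 members. The 0 lower members became 2 with the offset and 1 in low-correction mice, against 1240 and 419 of the tested sites. They stayed at 0 when each mouse was left out, against 90 to 704 sites. For CR-old against AL-young mice the 0 lower members became 1 with the covariate, 3 in low-correction mice and 8 with only the groups compared, and 0 to 1 when each mouse was left out (1 without AL-old 27 or CR-old 06), with 0 higher throughout. Of the 18884 tested sites 41, 381 and 1193 were lower in the first settings, in that order. Without AL-old 27 or CR-old 06 they were 38 and 37. The covariate removed the difference between 5 AL-old females and the other mice together with the correction, and the low-correction fit held 2 AL-old mice; no other cause was tested. Sex as a covariate, a trended dispersion, 20 or 100 reads and no minimum difference changed no member's call. At least 20 reads added 2 Itgax sites. On the adjusted scale 8 of 87 group means moved by more than their SD, all in AL-old mice. No paired analysis was possible because mouse numbers are not shared between groups. Sites with few reads limit what can be seen, as 145 sites in the windows had too few.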
